A study of Mus musculus with 8 samples.

Results

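The miR-26 family was measured through its mature members mmu-miR-26a-5p and mmu-miR-26b-5p in the C3H10T1/2 line, mouse embryo fibroblasts that can take mesenchymal fates and that react to hedgehog ligands. The members were chosen by name, as the entries of the microRNA (miRNA) array called miR-26a-5p and miR-26b-5p, which are 2 of the 611 mouse miRNAs on it and 2 of the 142 that were tested. The WT group received wild type IhhN, the N-terminal signaling part of Indian hedgehog, at 750 nM for 48 h, and the MT group received, at the same dose and time, E95K mutant IhhN, which carries an amino acid change found in brachydactyly type A1. The control group was labelled as not induced with protein, although its labels repeat the dose of the other groups. Both proteins were recombinant human proteins made in bacteria, the cells came from 1 cell line, and every group had 2 RNA samples (n = 2), of which the WT samples were each hybridized on 2 arrays. Nothing in the labels says that the 2 RNA samples of a group came from separate cultures, so the p-values measure only the spread between these samples.

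miRNAs are short RNAs that lower the output of mRNAs to which they pair, mostly through the seed, the bases near their 5′ end. The miR-26 family is known in mesenchymal cells as a regulator of osteogenic and adipogenic differentiation, and its known targets include Ezh2, which encodes a histone methyltransferase, Smad1, which carries bone morphogenetic protein signals, and Gsk3b, which encodes a kinase of the Wnt pathway. Its genes lie in introns of the Ctdsp genes, which encode small phosphatases, and are known to be transcribed with them. Hedgehog proteins bind the receptor Ptch1, which frees Smo and leads to transcription through the Gli factors.

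The mature sequences are shown because both members read the same target sites, and because they differ by so few bases that hybridization has to tell them apart. They are given 5′ to 3′ from RefSeq with the seed (bases 2 to 8) in capitals.
miR-26a-5p: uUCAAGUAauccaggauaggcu
miR-26b-5p: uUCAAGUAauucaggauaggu
The first 10 bases were identical. Counted from 1 at the 5′ end of miR-26a-5p, miR-26b-5p differed by C11U and C21U and was 21 bases long instead of 22. The seed UCAAGUA pairs with the site UACUUGA, or UACUUGAA with the A that commonly follows it. Among 1679 mature mouse miRNA names in the RefSeq table, 2 had this seed, and they were the 2 members. The probe sequences were not analysed here, so how far the probes of one member also bind the other was not tested.

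By the RefSeq annotation of GRCm38.p6, miR-26a-5p comes from 2 hairpins with the same mature sequence, Mir26a-1 on chromosome 9 (119031796 to 119031885, plus strand) within the gene Ctdspl and Mir26a-2 on chromosome 10 (126995530 to 126995613, plus strand) within Ctdsp2. A signal at miR-26a-5p therefore sums both loci. miR-26b-5p comes from Mir26b on chromosome 1 (74394310 to 74394394, plus strand) within Ctdsp1. The Gli binding motif GACCACCCA was searched on both strands of the promoter windows, from 250 bases before to 50 bases after each start. It was found in 0 windows of Ctdspl (1 window), Ctdsp2 (2 windows) and Ctdsp1 (1 window), and in 0.253% of all 32851 windows.

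All 8 arrays lay on 1 slide, with both arrays of WT replicate 1 and both MT arrays in columns 1 and 2 (the left side) and both arrays of WT replicate 2 and both control arrays in columns 3 and 4 (the right side). Between 104 and 150 mouse miRNAs were detected per array, with the fewest on the arrays of WT replicate 1 (104 and 117) and MT replicate 1 (106). Control arrays were the brightest as deposited. Over the 174 probes that every array detected, the 75th percentile was 785 and 606 signal units in control and between 432 and 565 elsewhere. Each array was scaled by 1 factor that made this percentile equal on all arrays before groups were compared, so that every level below is relative to the brighter miRNAs of the same array. The cell line carried miRNAs of mesenchymal cells, since 9 of 14 marker arms (such as miR-199a-3p, miR-214-3p and miR-21-5p) were detected on all arrays, and of 25 marker arms of neurons, liver, muscle, blood, epithelium and endocrine cells only miR-7a-5p was detected, and not on all arrays.

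Both members were detected on all 8 arrays. Each had 2 probes of 10 spots, and no spot was saturated. The brighter probe, which stands for the member below, gave miR-26a-5p spot-to-spot coefficients of variation of 3.24% to 8.88% and miR-26b-5p 6.42% to 15.8%. The third arm of the family on the array, miR-26b-3p from the other side of the Mir26b hairpin, had 4 probes of 5 spots and was detected on none of the 8 arrays. The most spots of one of its probes above background on an array was 2 of 5.

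Before scaling, both members were brightest in the control group. The miR-26a-5p signal was 1472 and 995 signal units on the control arrays, 553 and 726 on the MT arrays, 746 and 718 on the arrays of WT replicate 1, and 887 and 710 on those of WT replicate 2. The miR-26b-5p signal was 230 and 201 units in control, 80.2 and 92.9 in MT, 83.4 and 77.6 in WT replicate 1, and 129.7 and 98.5 in WT replicate 2. No array of a protein group reached a control array for either member. The share of all miRNAs for which this held before scaling was not counted. The control arrays were also brighter over all detected probes, as given above.

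Since each array was scaled by 1 factor, scaling narrowed the gap to control by the same amount for both members on the log2 scale. The scaled signal of mmu-miR-26a-5p was 732 and 763 units in the 2 WT samples, 602 and 808 in the 2 MT samples, and 902 and 789 in the 2 control samples. Both WT samples lay below both control samples, as did those of 25.4% of the miRNAs tested (36 of 142, miR-26a-5p included). MT replicate 2 lay above control replicate 2. The scaled signal of mmu-miR-26b-5p was 80.5 and 108.7 units in WT, 87.2 and 103.4 in MT, and 141.1 and 159.5 in control. All 4 samples of the protein groups lay below both control samples, as did those of 21.1% of the miRNAs tested (30 of 142, miR-26b-5p included). The 2 arrays of one RNA were closer than the replicates. For miR-26b-5p they gave scaled signals of 81.8 and 79.1 in WT replicate 1, and 110.4 and 107.0 in WT replicate 2.

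**Figure D1:**
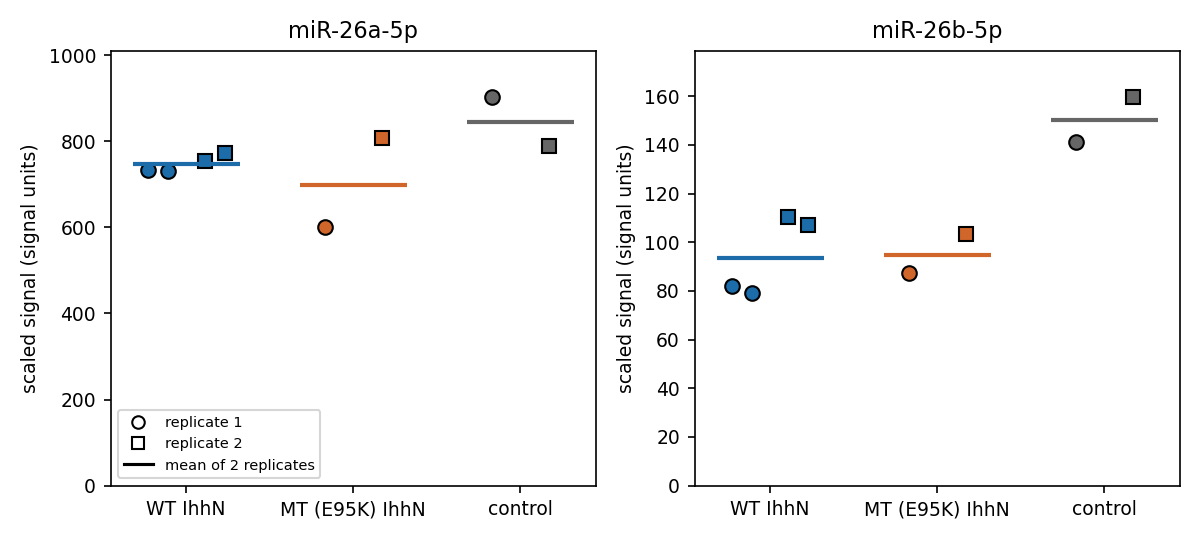
Scaled signal of miR-26a-5p (left) and miR-26b-5p (right) on each of the 8 arrays, on linear axes in signal units. Circles are replicate 1, squares replicate 2, and the horizontal line is the mean of the 2 replicates on the log2 scale. For miR-26b-5p the protein groups sit between 79.1 and 110.4 and control at 141.1 and 159.5, while for miR-26a-5p MT replicate 2 (808) lies above control replicate 2 (789).

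The comparison of WT with control asks how the miRNA differs between cells given wild type IhhN and cells labelled as given no protein. No group received an unrelated protein, so the hedgehog signal and the addition of a protein cannot be told apart. miR-26b-5p was 1.60-fold lower in WT, with a log2 difference in scaled signal of -0.68 ± 0.20 (SE, n = 2 each; 95% interval -1.16 to -0.21), from 7.23 ± 0.13 (SD) in control to 6.55 ± 0.31 in WT on the log2 scale. In limma's moderated test its p was 0.0114 before and 0.139 after Benjamini-Hochberg adjustment over the 142 miRNAs, so it did not pass the threshold of 0.05. Of all miRNAs tested, 28.2% had an unadjusted p under 0.05 in this comparison, 10.6% on the lower side, and 0% passed after adjustment. Groups without overlap and lower in WT were found for 25.4%. The difference of miR-26b-5p was the 5th lowest of 142, where the median over all miRNAs was 0.11. miR-26a-5p, at 9.55 ± 0.04 in WT and 9.72 ± 0.14 in control, differed by -0.17 ± 0.19 (95% interval -0.62 to 0.27; adjusted p = 0.533 in limma's test) and ranked 39th. This difference was smaller than its standard error.
Of the WT samples, replicate 1 lay farther from control for miR-26b-5p. The difference was -0.90 without WT replicate 2 and -0.46 without WT replicate 1, and the latter is also the value within the right side of the slide, where WT replicate 2 and both control samples lay (1 sample against 2, with no test). The arrays of WT replicate 1 also detected fewer miRNAs than those of WT replicate 2 (104 and 117 against 144 and 147), and the part of this in the result was not tested. For miR-26a-5p the value within the right side was -0.14, and leaving out control replicate 1 gave -0.08.

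The comparison of MT with control asks the same of the mutant protein. The level of miR-26b-5p was 1.58-fold lower in MT, with a log2 difference of -0.66 ± 0.20 (SE, n = 2 each; 95% interval -1.13 to -0.19) from the same control level to 6.57 ± 0.17 in MT. In limma's moderated test its p was 0.0133 before and 0.0663 after adjustment, which did not pass the threshold. In this comparison 39.4% of all miRNAs had an unadjusted p under 0.05, 12.7% on the lower side, and 0% passed after adjustment. Groups without overlap and lower in MT were found for 26.8%. miR-26b-5p was the 8th lowest of 142, where the median was 0.13. miR-26a-5p was at 9.45 ± 0.30 in MT and differed from control by -0.28 ± 0.19 (95% interval -0.72 to 0.17; adjusted p = 0.290 in limma's test), the 34th lowest. The SD of its MT samples was larger than the difference between the groups. Without MT replicate 1 the difference was -0.06, and without MT replicate 2 it was -0.49. The array of MT replicate 1 detected 106 miRNAs and that of MT replicate 2 detected 143, and the part of this in the result was not tested.
Side and group cannot be told apart here, since MT was only on the left and control only on the right. With the side as a term, which rests on the 2 WT samples alone, miR-26b-5p differed by -0.23 (adjusted p = 0.945 in limma's test) and miR-26a-5p by -0.22. Among only the 103 miRNAs detected on all 8 arrays, the same difference of miR-26b-5p had an adjusted p of 0.0377 in limma's test. Its unadjusted p under that filter was 0.00805 next to 0.0133. With that filter 29 of the 103 miRNAs passed the adjusted threshold in this comparison.

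The 2 comparisons share their control samples, so their values are not independent of each other. The comparison of WT with MT asks what the E95K change does to the response. Its differences do not use the control samples, but its standard errors, intervals and p-values do, because the 3 groups share 1 estimate of the spread. Neither member differed between the proteins beyond the spread between samples. miR-26b-5p was at 6.55 in WT and 6.57 in MT, a log2 difference of -0.02 ± 0.20 with a 95% interval of -0.50 to 0.45. miR-26a-5p was at 9.55 and 9.45, a difference of 0.10 ± 0.19 with an interval of -0.35 to 0.55. The adjusted p from limma was 0.990 for miR-26a-5p and 1 for miR-26b-5p, and 0% of the miRNAs tested passed the adjusted threshold or had an unadjusted p under 0.05. The intervals leave room for log2 differences of 0.55 for miR-26a-5p and -0.50 for miR-26b-5p, so they do not show that the proteins acted alike. Within the left side, WT replicate 1 minus the mean of MT was 0.07 for miR-26a-5p and -0.24 for miR-26b-5p. An exact permutation test of 2 samples against 2 cannot go below a two-sided p of 0.333 in any of these comparisons, and that was its value for miR-26b-5p against control in both protein groups.

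**Figure D2:**
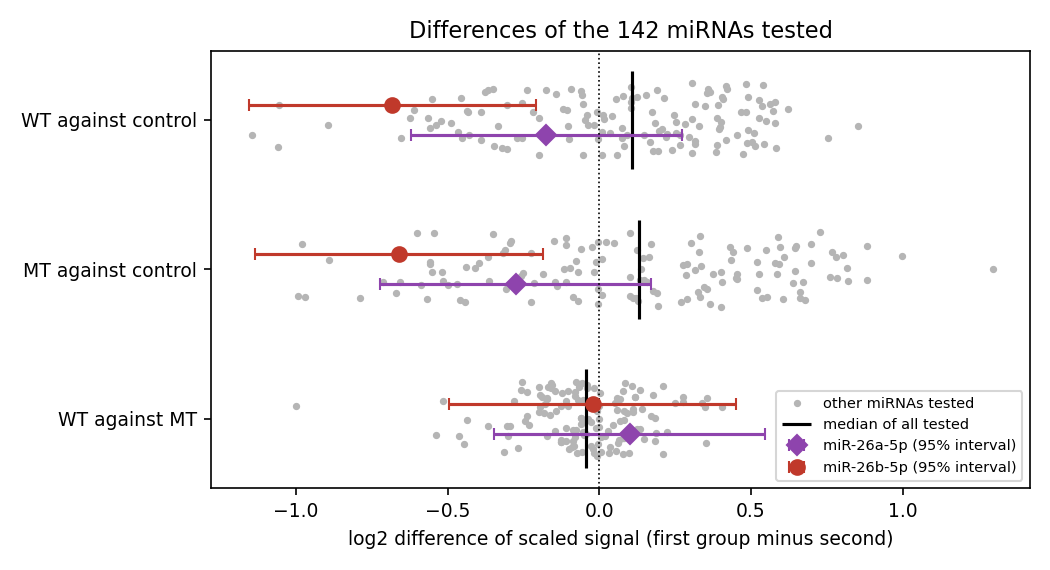
Log2 difference of scaled signal (x axis, first group minus second) for each of the 142 miRNAs tested in 3 comparisons. Grey points are the other miRNAs, black bars the medians of all (0.11, 0.13 and -0.04), and the diamond and red circle the members with their 95% intervals from limma. miR-26b-5p lies at -0.68 and -0.66 against control, with intervals below 0, and at -0.02 between the proteins, while each interval of miR-26a-5p spans 0.

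The second probe of each member gave a separate reading of the same RNA. For miR-26b-5p its differences were -0.66 (WT minus control), -0.66 (MT minus control) and -0.01 (WT minus MT), next to -0.68, -0.66 and -0.02 at the brighter probe. The brighter probe was between 1.75 and 1.87 times as bright as the other on the 8 arrays. For miR-26a-5p the second probe gave -0.27 and -0.35 against control, next to -0.17 and -0.28, and the ratio of the probes ran from 1.85 to 2.16. The faintest reading of a member was the second probe of miR-26b-5p on the first array of WT replicate 1, with a scaled signal of 43.7 where the lowest detected signal of that array was 37.6 and 8 of 10 spots were well above background.

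The ratio of the members within a sample does not depend on the factor by which an array is scaled. The signal of miR-26a-5p over miR-26b-5p, which compares 2 probes and is no ratio of molecules, was 9.10 and 7.02 in WT, 6.90 and 7.81 in MT, and 6.39 and 4.95 in control. Both control samples lay below all 4 samples of the protein groups. How many ratios of other miRNAs separate in this way was not counted. miR-26b-5p alone had all 4 protein samples below control, as had 21.1% of the miRNAs tested. On the log2 scale the ratio was 2.999 ± 0.26 (SD, n = 2) in WT, 2.88 ± 0.13 in MT and 2.49 ± 0.26 in control, which made differences from control of 0.51 for WT and 0.38 for MT. The exact permutation test gave a two-sided p of 0.333 for both, the smallest that 2 samples against 2 allow. With the second probes the difference was 0.39 for WT, where the groups overlapped, and 0.30 for MT, where they did not. After quantile normalization it was 0.62 for WT and 0.66 for MT, without overlap. After normexp background correction, run on median spot signals with an added offset, it was 0.07 for WT and 0.01 for MT.

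Scaling moved the level of all miRNAs together. With the scaling used here, 38.7% of the miRNAs tested were below 0 in WT minus control, 42.3% in MT minus control and 60.6% in WT minus MT. With scaling over all mouse probes these shares were 70.4%, 89.4% and 5.63%, and the median over all miRNAs moved from 0.11 to -0.19, from 0.13 to -0.51 and from -0.04 to 0.30. On that scale miR-26b-5p differed from control by -1.04 in WT and -1.38 in MT, and miR-26a-5p by -0.53 and -0.99. After normexp the values of miR-26b-5p were -0.26 and -0.30. Relative to these medians, miR-26b-5p was at -0.79 in both comparisons with the scaling used here, and at -0.85 and -0.86 with scaling over all mouse probes, -0.82 and -0.84 after quantile normalization, -0.81 and -0.85 with the total gene signal, and -0.49 and -0.46 after normexp. Relative to the median, miR-26a-5p was at -0.28 for WT and -0.41 for MT, and over the same alternatives it ran from -0.20 to -0.41 for WT and from -0.18 to -0.49 for MT. Both members thus lay below the median of the miRNAs tested under each of these 5 scalings and signals.

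**Figure D3:**
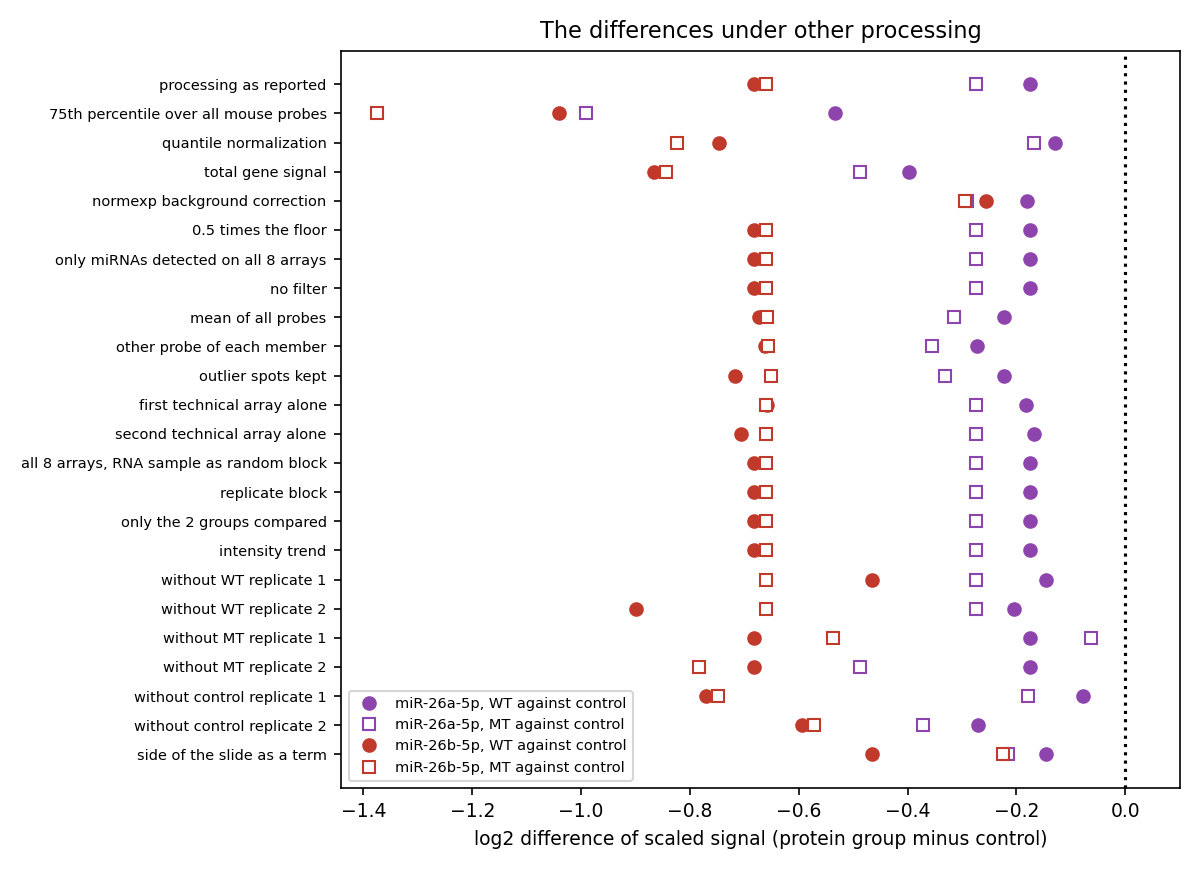
Log2 difference of scaled signal (x axis, protein group minus control) of miR-26a-5p (purple) and miR-26b-5p (red) under each processing (y axis), with filled circles for WT and open squares for MT. Settings that leave out a sample are included, and every value lies below 0, from -0.23 to -1.38 for miR-26b-5p and from -0.06 to -0.99 for miR-26a-5p. Some settings cannot move a difference, such as leaving out a sample of the third group, and repeat the reported value.

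The members did not share their closest partners. Over the 6 RNA samples, the log2 levels of the 2 members had a Pearson's r of 0.66 and a Spearman's rho of 0.66 (a description, since the samples fall into groups), and r was 0.56 over the 4 samples left when both control samples are taken out. miR-26a-5p ranked 37th of 141 by its likeness to miR-26b-5p, and miR-26b-5p 28th by its likeness to miR-26a-5p. The samples share 1 slide and 1 scale per array. The 5 miRNAs most like miR-26a-5p were miR-212-3p (r = 0.98), miR-30b-5p (0.98), miR-16-5p (0.93), miR-350-3p (0.93) and miR-22-3p (0.92), with MT replicate 1 the lowest sample for miR-26a-5p. The 5 most like miR-26b-5p were miR-15a-5p (r = 0.98), miR-148a-3p (0.98), miR-21-5p (0.98), miR-19b-3p (0.97) and miR-301a-3p (0.97), with WT replicate 1 the lowest sample and both control samples the highest. These 5 had log2 differences against control of -0.46 to -1.14 in WT and -0.56 to -0.98 in MT. They were picked by likeness over these same samples, so lying below control largely follows from the choice and is no separate result. With scaling over all mouse probes the correlation of the members was 0.93.

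**Figure D4:**
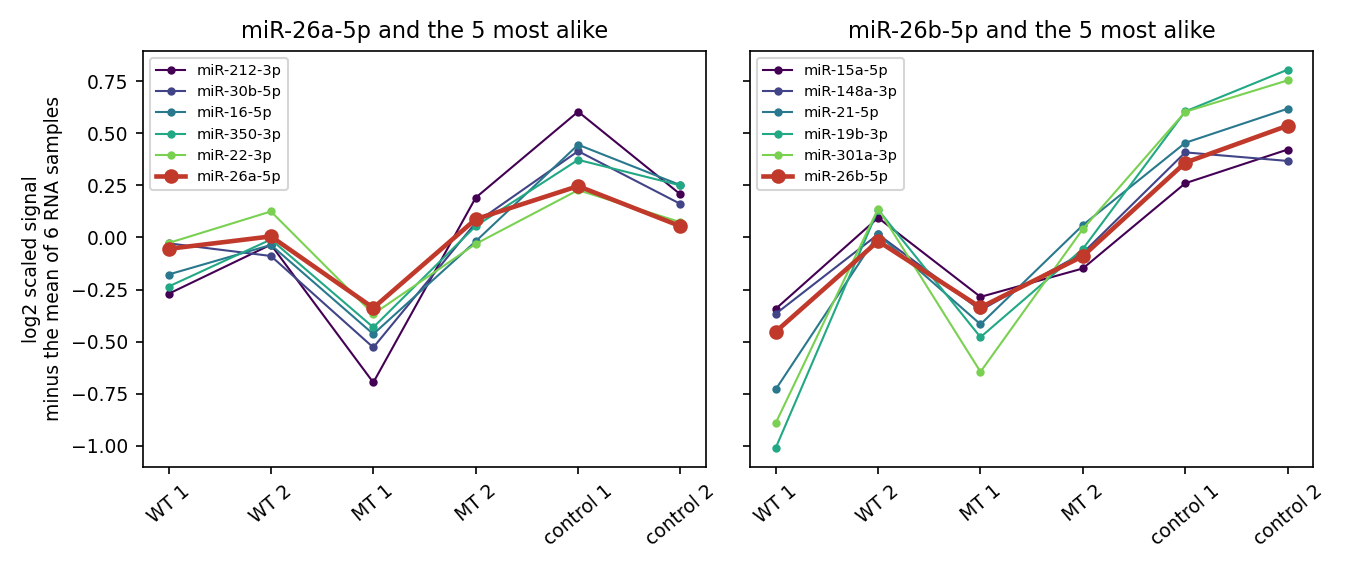
Log2 scaled signal minus the mean of the 6 RNA samples (y axis) for miR-26a-5p (left, red) and miR-26b-5p (right, red) with the 5 miRNAs whose levels were most like theirs, by RNA sample (x axis, replicates in no order). miR-26a-5p and its partners are lowest in MT replicate 1, and miR-26b-5p and its partners are highest in both control samples. The shared patterns largely follow from choosing the partners by likeness over these samples.

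Other miRNAs with known roles in the same differentiation were read beside the family. Of 52 tested miRNA arms in 4 lists, 0 passed the adjusted threshold in any comparison, as for all miRNAs. In WT, 7 were lower than control and 7 higher at an unadjusted p under 0.05, which is 26.9% of the 52 beside 28.2% of all miRNAs. In MT, 8 were lower and 10 higher, or 34.6% beside 39.4%. Of all miRNAs, 17.6% were higher in WT and 26.8% in MT at that p. The median difference of the 52 was 0.03 in WT and -0.01 in MT, where all miRNAs had 0.11 and 0.13.

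The 4 lists are described by counts at an unadjusted p under 0.05 and by their median difference from control. The lists name miRNAs and take every arm on the array, so the roles were not assigned to single arms. Of 10 tested arms of miRNAs known to promote osteogenesis, 2 were lower and 1 higher in WT (median -0.14), and 1 and 1 in MT (-0.28). Of 20 that restrain it, 2 and 1 in WT (0.05), and 3 and 2 in MT (-0.01). Of 13 that promote adipogenesis, 3 and 2 in WT (-0.01), and 3 and 2 in MT (-0.10). Of 18 that restrain it, 0 and 3 in WT (0.14), and 2 and 5 in MT (0.20). Over all miRNAs tested, 10.6% were lower and 17.6% higher in WT at that p, and 12.7% and 26.8% in MT. Whether a list departs from these shares was not tested.

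In the list promoting osteogenesis, miR-29b-3p, which targets collagen mRNAs and inhibitors of bone formation, had the lowest p with differences of -1.06 (WT) and -0.89 (MT), and miR-148b-3p had 0.42 and 0.59. In the list restraining it, miR-214-3p, which targets Atf4, had 0.49 and 0.78, and miR-30e-5p had -0.55 and -0.67. In the list promoting adipogenesis, miR-92a-3p of the miR-17 to miR-92a cluster had 0.47 and 0.53, miR-21-5p had -0.89 in WT and miR-181a-5p 0.80 in MT. In the list restraining it, let-7b-5p had 0.53 and 0.67 and let-7c-5p 0.50 and 0.61. Adjusted p was 0.139 or 0.153 for those of WT and 0.0611 to 0.0621 for those of MT in limma's test, and none passed. Between WT and MT the 2 lowest p in each list belonged to miR-322-3p, miR-148b-3p, miR-214-3p, miR-30c-5p, miR-181a-5p, miR-143-3p, miR-22-3p and miR-155-5p, with differences from -0.31 to 0.35 and adjusted p of 0.990.

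Of the miRNAs known, like miR-26a, to target Ezh2, 3 of 8 arms were tested, and 0 passed the adjusted threshold in any comparison. The values of miR-214-3p were given above, and it was the 1 arm of this list with an unadjusted p under 0.05 against control. miR-214-5p, listed only as the other arm of miR-214, had differences of 0.08 in WT and 0.18 in MT (adjusted p = 0.845 and 0.532 in limma's test). miR-101a-3p was at the floor of 3.97 on the log2 scale in all WT and MT samples and at 4.03 in control, so it had no measurable difference between the protein groups.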

How the data were processed

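The authors deposited, for each array, the Agilent Feature Extraction output with the background-subtracted intensity of every spot, without normalization between arrays. The labels name version 9.1 and the file header 10.7.1.1, with array annotation on mm9. A deposited series table held the same intensities to within 0.005 units and gave no alternative. Deposited 0 or 1 marks (other values) gave outlier and background calls.

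Outlier spots were left out and the rest of a probe averaged. A probe was detected when over 50% of its spots were well above background. Each array was scaled to its 75th percentile over the 174 probes that every array detected, with a floor (3.97, log2). The brightest probe stood for a miRNA, and the 2 arrays of a WT RNA were averaged. The 142 miRNAs that every array of some group detected were fitted over all 3 groups with limma 3.58.1 in R 4.3.3 (lmFit, eBayes, no replicate block, Benjamini-Hochberg). The fit was tested on simulated data. The number of samples limits precision. Figures used matplotlib 3.10.9.

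The members, the lists (from general knowledge, arms taken as described above) and the alternatives were chosen with earlier results of these data known. Named were the members, other arms of the family, the 5 tested miRNAs most like each member, the 2 smallest p of each list and every tested arm of the Ezh2 list. The ratio of the members was added later. The alternatives covered scaling, background correction, signal, floor, filter, probes, outlier spots, technical arrays, samples in the fit, replicate block, slide side and leaving out replicates. Normexp used median spot signals with an offset of 50.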

Additional observations from a re-analysis of the deposited data

How the results depend on the processing

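With 2 samples per group, the reported fit left 3 residual degrees of freedom per miRNA. limma's moderated test adds to them from the spread of all miRNAs tested. The small number of samples limits every test. Normexp changed the spot signal used, the background correction and the offset together, and the part of each was not tested. Under all 17 alternatives that kept every sample both members stayed lower than control in both protein groups. miR-26b-5p lay between -0.26 and -1.04 for WT and between -0.23 and -1.38 for MT. miR-26a-5p lay between -0.13 and -0.53 for WT and between -0.17 and -0.99 for MT. Not all 17 could move a difference. Changes of the floor, the filter, the blocks, the groups in the fit and the intensity trend left it as reported. So did the single technical arrays for MT, which had no second array. miR-26b-5p had an unadjusted p under 0.05 in 14 of the 17 in each comparison, and passed the adjusted threshold in 1, MT against control among miRNAs detected on all 8 arrays (-0.66, adjusted p = 0.0377). With 1 sample left out, and the lone sample assumed to vary like the others, the ranges were -0.90 to -0.46 and -0.78 to -0.54 for miR-26b-5p, and -0.27 to -0.08 and -0.49 to -0.06 for miR-26a-5p.

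For WT against MT the sign was not stable. miR-26b-5p (-0.02) was 0.33 with scaling over all mouse probes, 0.078 after quantile normalization, 0.040 after normexp and 0.0014 with the first technical array alone, and -0.24 to 0.19 with 1 sample left out (above 0 without WT replicate 1 or MT replicate 2, 0.10). miR-26a-5p (0.10) was -0.11 without MT replicate 1 and 0.31 without MT replicate 2.

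The replicate block changed no call. It gave -0.68 and -0.66 for miR-26b-5p (adjusted p = 0.152 and 0.0837 in limma's test). Deviations of same-numbered samples correlated at 0.02 (WT, MT), 0.39 (WT, control) and -0.46 (MT, control). These values cannot decide whether the numbers pair the samples, because the deviations also carry differences between arrays. The labels do not say.

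The correlation of the members, 0.66, was 0.93 with scaling over all mouse probes and 0.84 with the total gene signal. The 4 differentiation lists, with 0 calls, had 5 for WT and 12 for MT under normexp, 1 and 1 under the total gene signal, and in MT 10 when limited to those every array detected, 3 when the RNA was a random block and 0 to 5 with 1 sample left out (5 without MT replicate 2). The Ezh2 list, with 0, had 1 for WT and 1 for MT with 0.5 times the floor, and in MT 1 under normexp, 1 under that limit, 1 under the random block and 0 to 1 with 1 sample left out (1 without MT replicate 2). Over all miRNAs tested, with 0 calls, normexp made 22 in WT and 40 in MT, the total gene signal and the lower floor 1 each, and in MT the limit made 29, the random block 11 and leaving out MT replicate 2 made 18 (and 1 between WT and MT). The cause was not tested.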
